A study of Mus musculus with 18 samples.

Results

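The OLIG2 inhibitor CT-179 was compared with vehicle after 144 h of exposure (culture day 6) in PTCP53 304 cells, a mouse line of Sonic hedgehog (SHH) medulloblastoma. The comparison consists of the 3 vehicle and 3 CT-179 libraries of that time, 6 of the 18 libraries of the study. It covers the 11958 of 55183 genes that reached 1 FPKM (fragments counted on a gene, scaled to its length and to the size of the library) in at least 3 of those 6 libraries. All 6 libraries, vehicle included, carry the genotype Ptch1+/-; Trp53-/-, and all come from 1 cell line. The 3 vehicle and 3 CT-179 libraries of the same line at 24 h (culture day 1) entered the same model and served for the comparison between times. The labels do not say whether replicates were separate cultures, and the p-values given here therefore reflect the spread among these libraries alone, part or all of which may be technical.

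OLIG2 is a basic helix-loop-helix factor that sits on E-box motifs, and it is known from oligodendrocyte precursors and from stem-like cells of SHH medulloblastoma and glioma. In the hedgehog pathway the receptor PTCH1 restrains SMO until SHH ligand binds, and loss of Ptch1 lets SMO drive the GLI factors, which switch on Gli1, Ptch1 and cyclin D genes. OLIG1 and OLIG2, together with SOX8 and NKX2-2, mark the oligodendrocyte lineage, whose precursors carry proteoglycans and Pdgfra and, on the way to myelin, Gpr17.

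Marker levels of the line were examined at 144 h. Olig2 was present at 180 to 216 FPKM, Sox2 at 253 to 306 FPKM, and 11 of 14 SHH medulloblastoma markers reached 1 FPKM in a library. The sums of those 14 were 566.8 to 581.9 FPKM in vehicle and 564.8 to 602.7 in CT-179. Olig2 and Sox2 made up most of each sum, so the sums do not show the level of hedgehog targets such as Gli1, described below. Astrocyte markers, of which 14 of 15 reached 1 FPKM, summed to 4478 to 4649 FPKM in vehicle and 4508 to 5573 in CT-179. Oligodendrocyte precursor markers summed to 1038 to 1045 and 943.4 to 1003 FPKM. The granule neuron progenitor factors Atoh1 and Barhl1 were at or near 0, with at most 0.0141 and 0.00803 FPKM, and Sfrp1 stayed at or below 0.1185 FPKM. Trp53, null by the genotype, measured 8.77, 8.44 and 8.19 FPKM in vehicle and 7.17, 11.5 and 6.84 FPKM in CT-179. The source of these reads was not tested. Microglial, endothelial and red blood cell markers (10, 8 and 5 genes) never reached 1 FPKM, and their sums stayed at or below 0.273, 0.397 and 0.013 FPKM in every library. Of 9 fibroblast and pericyte markers 7 reached 1 FPKM, with sums of 29.27 to 29.7 FPKM in vehicle and 29.7 to 30.57 in CT-179. Of 5 ependymal markers 3 did, with sums of 10.65 to 11.59 FPKM in vehicle and 11.06 to 15.32 in CT-179. In bulk RNA, fewer cells of a type and less RNA per cell cannot be told apart.

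CT-179 replicate 2 stood apart from its partners. Its values of log2(FPKM + 1) correlated with those of CT-179 replicates 1 and 3 at Pearson's r of 0.937 and 0.938 across genes, which are not independent replicates, while the other 5 libraries correlated with each other at 0.99 or more. Its FPKM values summed to 4.255e+05, against 3.08e+05 to 3.245e+05 in the others. It also differed by gene length: among protein-coding genes its median difference from the vehicle mean ran from 0.91 log2 in the 10% of genes with the shortest exonic length to -0.93 in the 10% with the longest. CT-179 replicates 1 and 3 had the same tilt at a smaller size, from 0.11 and 0.12 to -0.10 and -0.12, and the vehicle libraries stayed between -0.02 and 0.02. The part of this tilt in the results was not tested. Values after a correction for length are given for some genes named for their change. This was done where, in the fit without CT-179 replicate 2, the correction ended the call or moved the value by over 1.5 times. In the fit of all 12 cell libraries the correction also ended calls, among them those of Clk1 (-0.58, adjusted p = 0.054, limma), Gja1 (-0.18) and Fgfr3 (-0.16). The calls of Slc7a11 (-0.09), Mcm10 (-0.07) and Kif23 (-0.06) ended there too, and Dcx moved to -0.58 and Cntn1 to -0.42.

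**Figure D1:**
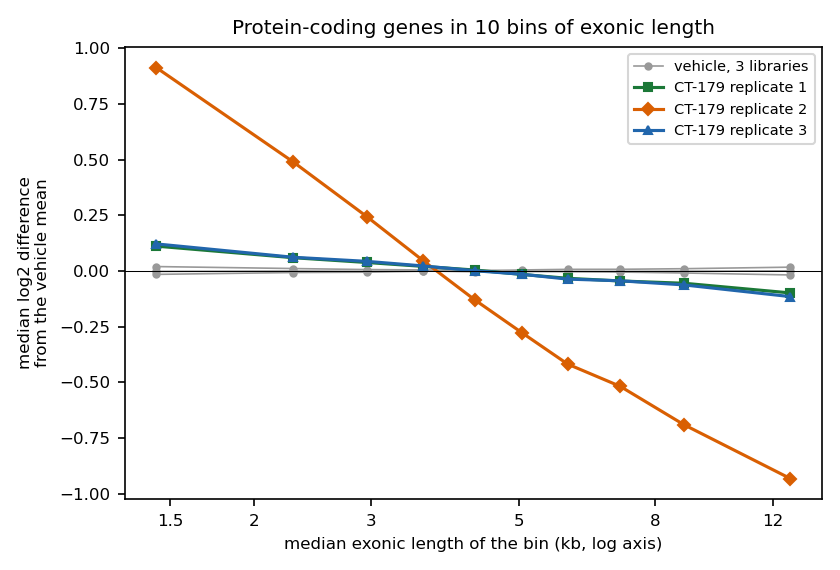
Median difference of each library from the vehicle mean at 144 h (y axis, log2(FPKM + 1)) in 10 bins of exonic length (x axis, kb, log axis) over protein-coding genes, with grey circles for vehicle and coloured markers for CT-179. CT-179 replicate 2 runs from 0.91 to -0.93, CT-179 replicate 1 from 0.11 to -0.10 and CT-179 replicate 3 from 0.12 to -0.12.

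Because of this library, results are given from a fit of all 12 cell libraries and from a fit of 11 libraries that leaves CT-179 replicate 2 out. With all 12 libraries, 66 genes were higher (0.552% of genes tested) and 422 lower (3.53%) under CT-179 at an adjusted p under 0.05 (limma), 4.08% in either direction. These calls ended when the 6 libraries of 144 h were fitted without those of 24 h (0 and 0, with 1071 genes at an unadjusted p under 0.05, limma). They fell to between 9 and 11 higher and 135 and 161 lower genes when vehicle replicate 1, 2 or 3 of 144 h was left out. With 11 libraries, 1477 genes were higher (12.4%) and 2108 lower (17.6%), 30% in either direction, and these included all 66 and all 422; the 5 libraries of 144 h fitted without those of 24 h gave 1737 and 2163. The share of higher genes among those called depended on the scaling. With 12 libraries it was 13.5%, and 7.83% after TPM scaling, 22.8% after median-of-ratios scaling and 31.1% after length correction. With 11 libraries the same shares were 41.2%, 16.9%, 58.1% and 55.3%. Over all genes tested, that fit gave 669 higher and 3278 lower genes under TPM, and 2257 and 1627 under median-of-ratios scaling. After length correction it gave 1648 and 1333 (13.8% and 11.2%). These are the background of the list counts given under each scaling below. The median over all genes shifted by -0.19 log2 with TPM scaling of the 12 libraries. From here on, a gene rose or fell if it passed the threshold in the 11-library fit, changes are on the scale of log2(FPKM + 1), which understates the change of low genes, and the genes that also passed in the 12-library fit are named as passing both fits. The 12 largest rises and the 12 largest falls described here were drawn from genes that passed both fits and whose groups did not overlap, so neither is a result for those 24 genes. Groups without overlap were common at 144 h. Over all genes tested, 19.6% were higher and 27.5% lower under CT-179 without overlap between the groups of 3.

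Olig2 itself did not pass the threshold. Its level was 206, 201 and 197 FPKM in vehicle and 216, 180 and 213 FPKM in CT-179 replicates 1, 2 and 3, so that the groups overlapped. The log2 fold change was 0.01 (SE 0.08, adjusted p = 0.95, limma) in the 12-library fit and 0.09 (SE 0.04, adjusted p = 0.09) in the 11-library fit. Its sign in the 12-library fit turned under TPM scaling (-0.19) and length correction (-0.14). Olig1, its close relative, measured 403, 396 and 391 FPKM in vehicle and 465, 625 and 444 FPKM in CT-179, without overlap. Olig1 rose by 0.20 (SE 0.06, adjusted p = 0.022) and did not pass in the 12-library fit (0.35, adjusted p = 0.13).

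Of 10 tested factors of the oligodendrocyte lineage 2 rose, Olig1 among them, and 5 fell (Sox8, Nkx2-2, Tcf7l2, Sox6 and Sox5), against a background of 12.4% higher and 17.6% lower genes. Nkx2-2 changed by -0.31, Tcf7l2 by -0.26 and Sox8 by -0.17. None of the 10 passed in the 12-library fit, and for Nkx2-2 and Tcf7l2 CT-179 replicate 2 lay among or above the vehicle libraries. After length correction 2 rose and 3 fell, without Sox6 (-0.05) and Sox5 (0.01).

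Gli1, the GLI factor that is itself a target of the hedgehog pathway, was lower in each CT-179 library. It measured 19.4, 20.6 and 21.1 FPKM in vehicle and 12.3, 9.38 and 11.5 FPKM in CT-179. The change was -0.83 (SE 0.09, adjusted p = 0.0015, limma) in the 12-library fit and -0.73 (SE 0.05, adjusted p = 8.0e-06) in the 11-library fit. Ptch1, the receptor and another target, measured 24.9, 26.3 and 24.5 FPKM in vehicle and 22, 7.85 and 20.6 FPKM in CT-179, with replicate 2 far below the rest. Its change of -0.23 in the 11-library fit (adjusted p = 0.015) did not pass after length correction (-0.11, adjusted p = 0.15). The factor Gli2 (-0.19) also fell, and it did not pass after length correction (adjusted p = 0.054). Foxm1, a factor of the mitotic programme, went from 3.5 to 3.53 FPKM in vehicle to 2.56, 1.67 and 2.49 FPKM in CT-179 and fell in both fits.

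Other members of the pathway were higher. Gas1, a co-receptor for SHH, measured 12.6, 12.2 and 12.1 FPKM in vehicle and 15.2, 15 and 14.5 FPKM in CT-179, without overlap, and rose in both fits (0.26 and 0.25). Cyclin D2 (Ccnd2) measured 13.7, 13.5 and 13.1 FPKM in vehicle and 16.4, 9.94 and 16.9 FPKM in CT-179, so that replicate 2 lay below vehicle and its partners above. It rose by 0.29 (adjusted p = 9.8e-05) in the 11-library fit, against 0.06 (adjusted p = 0.76) in the 12-library fit. Smo, the signal transducer, rose by 0.13 in the 11-library fit, while with CT-179 replicate 2 its value was -0.25 (adjusted p = 0.42). In all, 4 of 18 tested pathway genes rose (Ccnd2, Gas1, Smo and Mycn) and 5 fell, with a median of -0.00, against 12.4% higher and 17.6% lower genes and a median of -0.01 over all genes tested. The balance of this list turned with the scaling, from 3 and 8 under TPM to 6 and 4 under median-of-ratios scaling and 5 and 2 after length correction, where Mycn did not pass (adjusted p = 0.051).

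Of the 12 largest falls, 2 were long noncoding RNAs, Miat and Firre, and the other 10 were protein-coding genes. Miat, a long noncoding RNA of neural nuclei, measured 27.8, 30.3 and 28.9 FPKM in vehicle and 11.3, 3.42 and 6.83 FPKM in CT-179. This was -1.99 (SE 0.27, adjusted p = 0.0037, limma) in the 12-library fit and -1.61 (SE 0.13, adjusted p = 2.2e-05) in the 11-library fit. Malat1, an abundant RNA of nuclear speckles, measured 64.5, 76.5 and 68.9 FPKM in vehicle and 39.9, 23.6 and 34.4 FPKM in CT-179, and changed by -1.11 and -0.90 in the same order of fits. Firre, an RNA from the X chromosome that takes part in nuclear organisation, measured 4.45 to 4.8 FPKM in vehicle and 2.13, 0.805 and 1.34 FPKM in CT-179 (-1.26 and -1.06). Snhg17, a host gene of small nucleolar RNAs, went from 3.66 to 3.71 FPKM to 2.17, 1.97 and 1.65 FPKM (-0.68 and -0.69). Malat1 and Snhg17, named from their list, passed both fits without overlap between groups. In the list of nuclear long noncoding RNAs 4 of 12 fell (Miat, Malat1, Snhg17 and Snhg5) and 1 rose (Gas5), against 17.6% and 12.4% of all genes.

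Among coding genes Wsb1, an adaptor of a ubiquitin ligase, had the largest fall of those named. It measured 52.5, 58.8 and 52 FPKM in vehicle and 24.6, 16.5 and 15.8 FPKM in CT-179, a change of -1.50 (SE 0.14, adjusted p = 0.00072, limma) in the 12-library fit and -1.42 (SE 0.13) in the 11-library fit. CT-179 replicate 1 lay nearest to vehicle. The transmembrane adaptor gene Lime1 measured 4.6, 5.27 and 5.28 FPKM in vehicle and 2.05, 1.02 and 1.22 FPKM in CT-179. Tgfbr3l, related to a TGF-beta co-receptor, measured 3.21 to 4.01 FPKM in vehicle and 0.891 to 1.17 FPKM in CT-179, and Igflr1, a receptor of the IGF-like family, 2.63 to 2.81 and 0.687 to 1.25 FPKM. Leng8 went from 19.7 to 20.4 to 5.12 to 11.1 FPKM, Ints6l, related to an Integrator subunit, from 4.67 to 5.17 to 0.875 to 2.38 FPKM, and Paxbp1, a partner of PAX factors, from 14.4 to 15.8 to 5.31 to 8.49 FPKM. The changes of these 6 ran from -1.22 (Lime1) to -0.92 (Paxbp1) in the 11-library fit. The gene model of Lime1 overlaps that of Zgpat and the model of Leng8 that of Leng9, and the strand used in counting is not given in the sources used here, so reads of such pairs may not be separate.

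**Figure D2:**
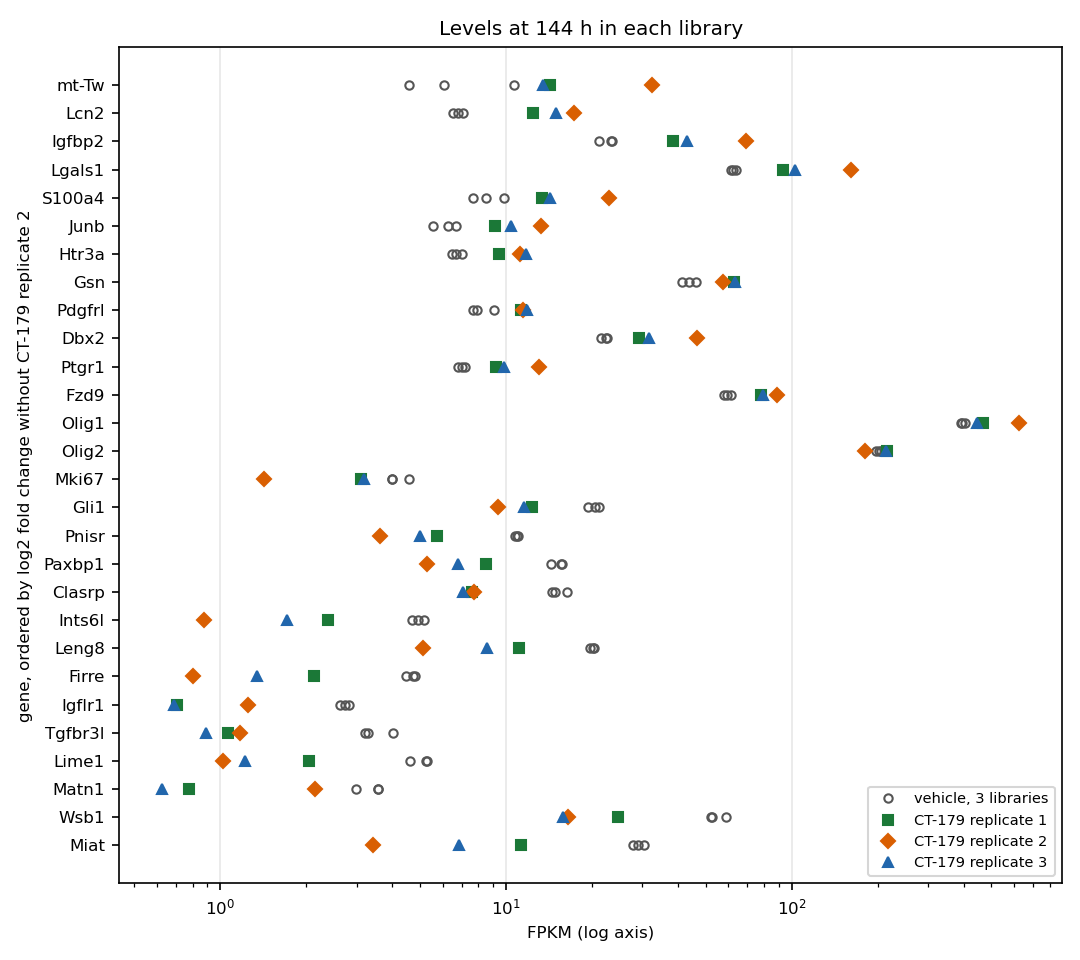
FPKM of 28 genes in each library at 144 h (x axis, log axis): the 12 largest falls, the 12 largest rises, and Olig1, Olig2, Gli1 and Mki67, with open circles for the 3 vehicle libraries and coloured markers for the CT-179 libraries. The 24 largest changes were chosen for groups that do not overlap. Of the other 4, Olig2 overlaps, with CT-179 at 180 to 216 FPKM and vehicle at 197 to 206 FPKM, and Olig1, Gli1 and Mki67 do not.

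Genes of the splicing kinases and SR-type proteins fell together. CLK kinases phosphorylate SR proteins, which take part in the choice of exons, and cyclins L1 and L2 partner the CDK11 kinases in splicing. Of 34 genes in this list, 27 fell and 1 rose (Srsf9), with a median of -0.33, against 17.6% lower genes and a median of -0.01 over all genes tested. In the 12-library fit 14 fell and none rose, against a background of 3.53%. After length correction of the 11-library fit 25 fell and 2 rose, and after TPM scaling 29 fell. The list's median difference from vehicle was -0.33, -0.48 and -0.33 in CT-179 replicates 1, 2 and 3.

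Clk1 measured 21.7, 24.5 and 23.4 FPKM in vehicle and 12.8, 14 and 11.5 FPKM in CT-179, a change of -0.82 (SE 0.08, adjusted p = 0.00082, limma) in the 12-library fit and -0.89 (SE 0.06, adjusted p = 7.0e-06) in the 11-library fit. Within the CLK family Clk4 (-0.68) and Clk2 (-0.55) fell in both fits, while Clk3 (-0.22) passed the 11-library fit alone and its groups overlapped. Cyclin L1 (Ccnl1) measured 16, 16.8 and 16.5 FPKM in vehicle and 9.72, 8.95 and 9.01 FPKM in CT-179, so that the 3 CT-179 libraries, including replicate 2, lay close together. Cyclin L2 (Ccnl2) measured 29.6 to 31.5 FPKM in vehicle and 16.6 to 18.6 FPKM in CT-179, again without overlap. Clasrp, which binds CLK4, measured 14.5, 16.3 and 14.9 FPKM in vehicle and 7.62, 7.71 and 7.08 FPKM in CT-179 (-0.96, SE 0.06, adjusted p = 8.0e-06). Pnisr, an SR-related protein, went from 10.8 to 11 FPKM to 5.72, 3.62 and 4.99 FPKM (-0.91). Srrm2, a large scaffold of nuclear speckles, measured 62.2 to 66.3 FPKM in vehicle and 45.4, 15.9 and 44.9 FPKM in CT-179. It fell by 0.51 on the log2 scale in the 11-library fit and did not pass in the 12-library fit (adjusted p = 0.1); its model overlaps that of Elob.

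Core spliceosome genes gave counts that depended on the scaling. Of 29 tested, 8 rose and 6 fell, with a median of 0.07, against 12.4% and 17.6% of all genes, and none passed in the 12-library fit. The counts were 2 and 6 under TPM, 11 and 3 under median-of-ratios scaling and 6 and 2 after length correction. Sf3b1, a component of the U2 complex, fell by 0.26 on the log2 scale (-0.16 after length correction), and Snrpc, a U1 component, rose by 0.19. In CT-179 replicate 2 both lay far from vehicle, at 23.6 FPKM against 51.4 to 52.7 in vehicle for Sf3b1 and 86.5 FPKM against 34.2 to 35.8 for Snrpc.

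**Figure D3:**
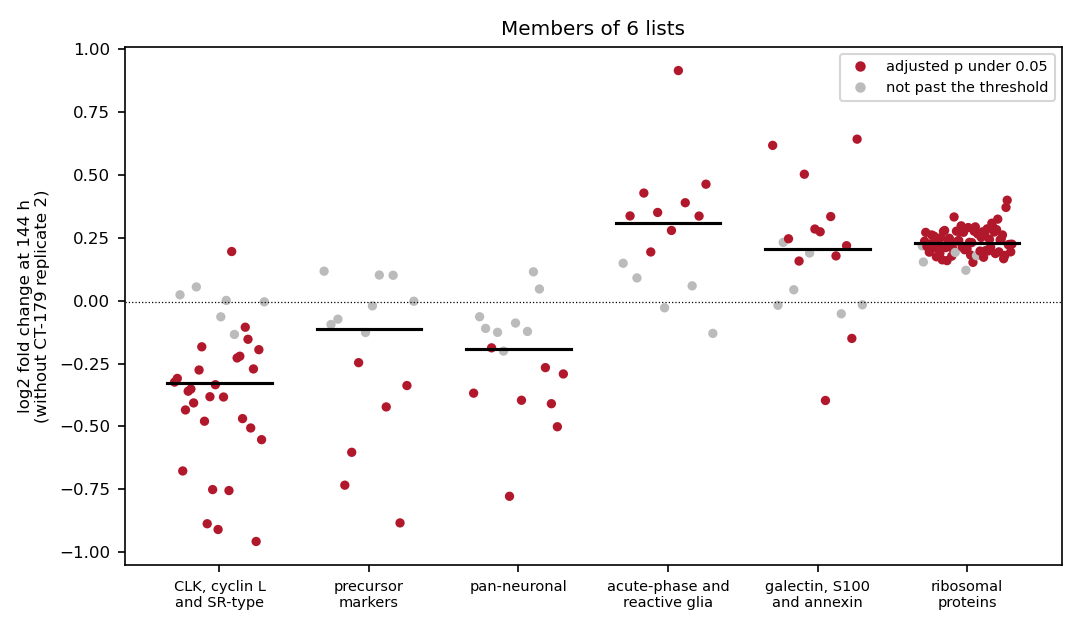
Log2 fold change at 144 h in the 11-library fit (y axis) of each tested member of 6 gene lists, with red points for an adjusted p under 0.05 (limma), a bar at the list's median and a dotted line at the median of all genes tested. The bars lie at -0.33 for the CLK, cyclin L and SR-type list, -0.11 for precursor markers, -0.19 for pan-neuronal genes, 0.31 for acute-phase and reactive glia genes, 0.20 for galectin, S100 and annexin genes and 0.23 for ribosomal proteins.

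Several markers of oligodendrocyte precursors were lower under CT-179. Gpr17, a receptor of precursors that are committed to myelination, measured 51.5, 50.8 and 45.7 FPKM in vehicle and 27.7, 20.8 and 24.9 FPKM in CT-179, without overlap. The change was -0.99 (SE 0.09, adjusted p = 0.00082, limma) in the 12-library fit and -0.88 (SE 0.06, adjusted p = 7.0e-06) in the 11-library fit; its model overlaps that of Lims2. Tnr, a matrix protein of perineuronal nets, measured 5.36, 5.51 and 5.0 FPKM in vehicle and 2.92, 0.684 and 2.65 FPKM in CT-179, and fell in both fits (-1.12 and -0.73). Matn4, a matrilin, measured 2.68 to 2.9 FPKM in vehicle and 1.4, 3.07 and 1.55 FPKM in CT-179, so that replicate 2 lay above vehicle and its partners below. Ptprz1, a receptor phosphatase, went from 74 to 76.7 FPKM to 61, 24.5 and 57.8 FPKM (-0.34 in the 11-library fit, adjusted p = 7.8e-05, and -0.22 after length correction; -0.75 in the 12-library fit, adjusted p = 0.13).

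Of 14 precursor markers tested, 6 fell and none rose, against 17.6% and 12.4% of all genes, with a median of -0.11, and 2 of them, Gpr17 and Tnr, also fell in the 12-library fit. After length correction, and under median-of-ratios scaling, 6 fell and 2 rose, and under TPM 9 fell. Pdgfra, the growth factor receptor that defines precursors, was not among the 6: it measured 21.1 to 21.7 FPKM in vehicle and 20.7, 9.68 and 21.6 FPKM in CT-179. Of 14 myelin genes 4 were tested, and of these Fa2h, an enzyme of myelin lipids, went from 1.32 to 1.59 FPKM to 0.623, 1.21 and 0.696 FPKM and fell in both fits.

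Neuronal genes were also lower. Dcx, a microtubule protein of migrating young neurons, measured 4.54, 4.83 and 4.8 FPKM in vehicle and 2.58, 1.34 and 2.11 FPKM in CT-179, without overlap. The change was -0.95 (SE 0.12, adjusted p = 0.0033, limma) in the 12-library fit and -0.78 (SE 0.07, adjusted p = 2.8e-05) in the 11-library fit. Cntn1, an axonal adhesion protein, measured 35 to 36.3 FPKM in vehicle and 25.7, 16.3 and 24 FPKM in CT-179 and fell in both fits. Gap43, of growth cones, went from 8.46 to 9.43 FPKM to 6.38, 13.4 and 6.35 FPKM, with replicate 2 above vehicle, and Ncam1, a cell adhesion molecule, changed by -0.27 in the 11-library fit. In all 8 of 16 tested pan-neuronal genes fell and none rose, with a median of -0.19, against 17.6% lower and 12.4% higher genes and a median of -0.01 over all genes tested. Of these 3 (Dcx, Snap91 and Cntn1) fell in the 12-library fit, and after length correction 7 fell and 2 rose. The summed level of 23 pan-neuronal genes was 332.1 to 337.9 FPKM in vehicle and 294.6, 171.9 and 288 FPKM in CT-179 replicates 1, 2 and 3, with replicate 2 far below its partners.

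Astrocyte genes went in both directions. The gap junction gene Gja1 measured 10.6, 10.5 and 9.95 FPKM in vehicle and 8.0, 6.11 and 7.39 FPKM in CT-179 and fell in both fits (-0.48 and -0.39). S100b, a calcium-binding protein of glia, went from 14.7 to 15.1 FPKM to 11.8, 25.7 and 10.2 FPKM, with replicate 2 above vehicle, and its model overlaps that of Dip2a. The glutamate transporter Slc1a2 changed by -0.28 in the 11-library fit and by -0.17 after length correction. Aldoc, an aldolase of astrocytes, rose instead, from 573 to 588 FPKM to 711, 735 and 704 FPKM (0.31 and 0.29, both fits). Of 14 astrocyte markers 6 fell and 2 rose (Aldoc and Gfap), against 17.6% and 12.4% of all genes, so that the share of rises was near that background.

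Among 15 neural stem cell genes 6 rose and none fell, against 12.4% and 17.6% of all genes. The intermediate filament gene Vim measured 587, 582 and 538 FPKM in vehicle and 721, 873 and 734 FPKM in CT-179, without overlap, which was 0.44 (SE 0.09, adjusted p = 0.021, limma) in the 12-library fit and 0.35 (SE 0.04) in the 11-library fit. Fabp7, the brain lipid-binding protein of radial glia, measured 1051 to 1098 FPKM in vehicle and 1377, 2468 and 1345 FPKM in CT-179. The factor Sox4 rose by 0.21 and the Notch target Hes5 by 0.20 in the 11-library fit, and Hes5 did not pass after length correction (adjusted p = 0.072). The count of stem cell genes turned on the scaling, since under TPM 3 were higher and 3 lower, and after length correction 4 and 1.

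Lcn2, an iron-carrier protein that reactive glia secrete, was among the largest rises. It measured 6.76, 7.05 and 6.5 FPKM in vehicle and 12.5, 17.2 and 14.9 FPKM in CT-179. The rise was 1.02 (SE 0.10, adjusted p = 0.0011, limma) in the 12-library fit and 0.91 (SE 0.07, adjusted p = 2.2e-05) in the 11-library fit. Of 14 acute-phase and reactive glia genes 9 rose and none fell, against 12.4% and 17.6% of all genes (5 rose under TPM), with a median of 0.31, the highest of the 40 lists in that fit, and Lcn2 was the one that passed in the 12-library fit. The list's median difference from vehicle was 0.20 and 0.40 in CT-179 replicates 1 and 3 and -0.07 in replicate 2. Serpina3n, a protease inhibitor of reactive astrocytes, measured 19, 18.4 and 16.3 FPKM in vehicle and 22, 19.6 and 24.2 FPKM in CT-179 (0.35 in the 11-library fit). S1pr3, a lipid receptor (0.46), and ceruloplasmin, Cp (0.34), rose in the 11-library fit alone, and in CT-179 replicate 2 Cp measured 12.8 FPKM against 26.5 to 27.3 in vehicle.

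Galectin and S100 genes were higher as well. Galectin-1 (Lgals1), a secreted sugar-binding protein, measured 62.1, 63.8 and 61.2 FPKM in vehicle and 93.2, 162 and 103 FPKM in CT-179. The rise was 0.88 (SE 0.17, adjusted p = 0.018, limma) in the 12-library fit and 0.64 (SE 0.07, adjusted p = 8.1e-05) in the 11-library fit. S100a4, a calcium-binding protein of motile cells, measured 8.54, 9.83 and 7.69 FPKM in vehicle and 13.4, 22.9 and 14.2 FPKM in CT-179 (0.62). S100a11 (0.50), S100a10 (0.33), Anxa4 (0.28) and Anxa6 (0.25) rose in the 11-library fit. For Anxa4, CT-179 replicate 2 measured 9.51 FPKM, below the 9.67 to 9.96 of vehicle. Of 18 galectin, S100 and annexin genes 10 rose and 2 fell (S100b and Lgals8), with a median of 0.20, against 12.4% and 17.6% of all genes. These are short genes, with a median exonic length of 1697 bases against 4380 over all genes tested, and after length correction 8 rose and 2 fell.

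Genes of growth factor signalling moved both ways. Igfbp2, which binds insulin-like growth factors, measured 23.4, 21.2 and 23.4 FPKM in vehicle and 38.5, 69.2 and 42.9 FPKM in CT-179. The rise was 1.07 (SE 0.17, adjusted p = 0.0084, limma) in the 12-library fit and 0.82 (SE 0.06, adjusted p = 1.2e-05) in the 11-library fit. The related Igfbp5 went the other way, from 422 to 426 FPKM to 347, 139 and 342 FPKM (-0.30 in the 11-library fit). The receptor Igf2r (-0.29) and the adaptor Irs2 (-0.26) also fell in that fit, and the model of Igf2r overlaps that of Airn. Of 15 genes of this system 3 rose and 4 fell, against 12.4% and 17.6% of all genes. The counts were 2 and 4 under TPM and 4 and 3 after length correction, where the balance turned.

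Of 20 receptor tyrosine kinases 5 rose and 7 fell, against 12.4% and 17.6% of all genes, and 2 and 7 under TPM. Fgfr3 went from 19 to 21.4 FPKM to 16.9, 13.4 and 16.2 FPKM and fell in both fits. Kit, the receptor of stem cell factor, changed by -0.23, Ntrk2, the receptor of BDNF, by -0.18 and Erbb2, whose model overlaps that of Mien1, by 0.23, each passing the 11-library fit. For Erbb2, CT-179 replicate 2 measured 11.7 FPKM, below the 12.97 to 13.52 of vehicle. After length correction Ntrk2 did not pass (-0.03, adjusted p = 0.6), and 8 receptors rose and 3 fell, so that the balance of the list turned.

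Genes that signalling through MAPK switches on were higher in several cases. Dusp6, a phosphatase of ERK, measured 1.26, 1.15 and 1.16 FPKM in vehicle and 1.68, 1.77 and 1.72 FPKM in CT-179, without overlap. The rise was 0.31 (SE 0.05, adjusted p = 0.0074, limma) in the 12-library fit and 0.30 (SE 0.03, adjusted p = 0.00011) in the 11-library fit. The ETS factor Etv5 (0.32) and the inhibitors Spry2 (0.21) and Spred2 (0.18) rose in the 11-library fit. In CT-179 replicate 2 Etv5 measured 7.32 FPKM against 9.46 to 10.05 in vehicle, and Spred2 4.02 FPKM against 8.21 to 8.41. Spry2 lay above vehicle in that library. Of 14 MAPK feedback genes 7 rose and 2 fell (Etv1 and Spred3), with a median of 0.19, against 12.4% and 17.6% of all genes; for Etv1 the change of -0.28 became -0.17 after length correction. Junb, an AP-1 subunit, measured 6.27, 6.68 and 5.55 FPKM in vehicle and 9.14, 13.2 and 10.4 FPKM in CT-179 (0.72 and 0.59). Fos (0.29), its partner in AP-1, and the early growth response factor Egr1 (0.28) rose in the 11-library fit, which made 3 of 11 immediate early genes.

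The remaining members of the 12 largest rises were scattered in function. Gelsolin (Gsn), which severs actin, measured 43.8, 46.3 and 41.1 FPKM in vehicle and 62.8, 57.4 and 63.3 FPKM in CT-179. The serotonin receptor subunit Htr3a measured 6.46 to 7.02 FPKM in vehicle and 9.46 to 11.7 FPKM in CT-179. Pdgfrl went from 7.67 to 9.04 to 11.3 to 11.8 FPKM, the homeobox gene Dbx2 from 21.5 to 22.5 to 29.1 to 46.8 FPKM, the reductase Ptgr1 from 6.8 to 7.21 to 9.24 to 13.1 FPKM, and the Wnt receptor Fzd9 from 57.9 to 61.3 to 77.8 to 88.6 FPKM. The 6 rises ran from 0.40 (Fzd9) to 0.58 (Htr3a) in the 11-library fit. The mitochondrial tRNA gene mt-Tw gave the largest fitted rise of the 12 (1.34 and 0.95, and 1.44 in the latter after length correction), but vehicle itself ranged from 4.56 to 10.6 FPKM, and its model overlaps that of mt-Nd2, which averaged 539 FPKM.

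Matn1, a matrilin of cartilage matrix, and Junb are shown with their upstream sequence because they are a fall and a rise whose promoters hold the palindromic E-box CAGCTG, a motif of the class CANNTG that basic helix-loop-helix factors bind. Matn1 measured 3.56, 3.57 and 2.98 FPKM in vehicle and 0.777, 2.14 and 0.627 FPKM in CT-179, a change of -1.06 (SE 0.20, adjusted p = 0.016, limma) in the 12-library fit and -1.36 (SE 0.07, adjusted p = 3.2e-06) in the 11-library fit. CT-179 replicate 2 lay nearest to vehicle. The 250 bases before each start site, from RefSeq on GRCm38.p6, are printed 5′ to 3′ on the gene's strand, at chr4:130944135-130944384 (plus strand) for Matn1 and chr8:84978749-84978998 (minus strand) for Junb, with CAGCTG in capitals.
Matn1: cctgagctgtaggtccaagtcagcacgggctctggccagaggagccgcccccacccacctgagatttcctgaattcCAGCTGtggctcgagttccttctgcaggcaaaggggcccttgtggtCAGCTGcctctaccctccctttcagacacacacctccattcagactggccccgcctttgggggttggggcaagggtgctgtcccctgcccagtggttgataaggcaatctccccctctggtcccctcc
Junb: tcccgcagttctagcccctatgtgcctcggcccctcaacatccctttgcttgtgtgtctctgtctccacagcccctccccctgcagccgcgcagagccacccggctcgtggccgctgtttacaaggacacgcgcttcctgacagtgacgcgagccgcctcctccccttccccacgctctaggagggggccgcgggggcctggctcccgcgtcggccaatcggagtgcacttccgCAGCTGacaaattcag
The window of Matn1 holds 2 copies of the motif and that of Junb holds 1, whose first base lies 16 bases before the start.

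Of the 28 genes that the rule puts first (the 12 largest rises, the 12 largest falls, Olig1, Olig2, Gli1 and Mki67), 21 had a promoter window and 3 of these, Matn1, Junb and Gsn, held CAGCTG. Counted on both strands over the 250 bases before each RefSeq start, CAGCTG stood in 13.8% of the tested genes that had a window and in 13% of all windows. It stood in 9 of the 44 genes with a window that were higher in the 12-library fit (20.5%) and in 52 of 278 of those lower (18.7%), and in the 11-library fit in 12.7% and 14.7%. Shares of genes count a gene that has several windows if any of them holds the motif. CATCTG stood in 11.2% of the tested genes with a window, and in 13.6% of those higher and 11.5% of those lower in the 12-library fit. CATATG stood in 1.68%, 4.55% and 0.719% of the same sets, and the GLI motif GACCACCCA in 0.241%, 0% and 0.36%. These shares were not tested, and a match is a description and not a bound site.

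Most cell cycle genes did not pass the test. Mki67, the proliferation marker, measured 3.99, 3.99 and 4.59 FPKM in vehicle and 3.12, 1.42 and 3.19 FPKM in CT-179, without overlap. It changed by -0.32 (SE 0.05, adjusted p = 0.0014, limma) in the 11-library fit and did not pass in the 12-library fit (-0.58, adjusted p = 0.096). Of 26 genes of G2/M and mitosis 8 fell and 1 rose (Ccnb2), with a median of -0.08, and after length correction 5 fell and none rose. Of 25 genes of G1/S and replication 7 fell and 1 rose (Mcm6), with a median of -0.02, against 17.6% lower and 12.4% higher genes over all. For the latter list the counts of higher and lower genes were 0 and 10 under TPM, 4 and 4 under median-of-ratios scaling and 2 and 6 after length correction, so its balance depended on the scaling. The kinesin Kif23 (2.04, 1.93 and 2.12 FPKM in vehicle and 1.67, 1.29 and 1.48 in CT-179) and the replication factor Mcm10 (1.35, 1.13 and 1.38 FPKM in vehicle and 0.912, 0.94 and 0.737 in CT-179) fell in both fits. The licensing factor Cdt1 changed by -0.25 and the survivin gene Birc5 by -0.15 in the 11-library fit, while with CT-179 replicate 2 Birc5 gave 0.10 (adjusted p = 0.64). Of 18 genes of the cyclin D, CDK and RB axis 4 rose (Ccnd2, Cdk4, Cdkn2a and Ccnd3) and 1 fell (Cdk2), and 3 and 3 under TPM; Cdk2 did not pass after length correction (adjusted p = 0.091), and the rise of Ccnd3 went from 0.12 to 0.20. Cdk4, the kinase of D cyclins, measured 149 to 150 FPKM in vehicle and 175, 280 and 176 FPKM in CT-179, and the inhibitor locus Cdkn2a 76.8 to 79.1 and 91, 197 and 92.1 FPKM.

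Genes of the translation and energy machinery, which are short, were higher. Of 77 cytosolic ribosomal protein genes 71 rose and none fell, at a median of 0.23, against 12.4% and 17.6% of all genes. Rpl36a measured 330 to 338 FPKM in vehicle and 421, 1013 and 441 FPKM in CT-179, and Rps6 135 to 137 FPKM and 164, 283 and 166 FPKM. Of 78 nuclear-encoded respiratory chain genes 48 rose and none fell, with the complex I subunits Ndufa2 at 0.25 and Ndufa6 at 0.26. Of 35 proteasome subunit genes 20 rose and none fell, with Psmb5 at 0.39 and Psma5 at 0.20. None of these 3 lists had a member past the threshold in the 12-library fit. After length correction of the 11-library fit 69, 31 and 15 members rose, and after TPM scaling 68, 19 and 10. The lists' medians in CT-179 replicate 2 were 1.37, 1.25 and 0.81, against 0.21, 0.15 and 0.11 in replicate 1 and 0.24, 0.14 and 0.12 in replicate 3.

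Long genes of chromatin and transcription were lower. Of 28, with a median exonic length of 13878.5 bases, 22 fell and none rose, against 17.6% and 12.4% of all genes. After length correction 6 fell, against 11.2% of all genes. Med12, a subunit of the Mediator kinase module, measured 14.6 to 14.8 FPKM in vehicle and 9.85, 1.45 and 9.4 FPKM in CT-179. It changed by -0.57 (SE 0.03, adjusted p = 3.4e-06, limma) in the 11-library fit and by -0.50 after length correction. Kmt2c, a histone methyltransferase, changed by -0.31 and by -0.15 after length correction. The list's medians in CT-179 replicates 1, 2 and 3 were -0.17, -1.29 and -0.19, and none of its members passed in the 12-library fit.

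**Figure D4:**
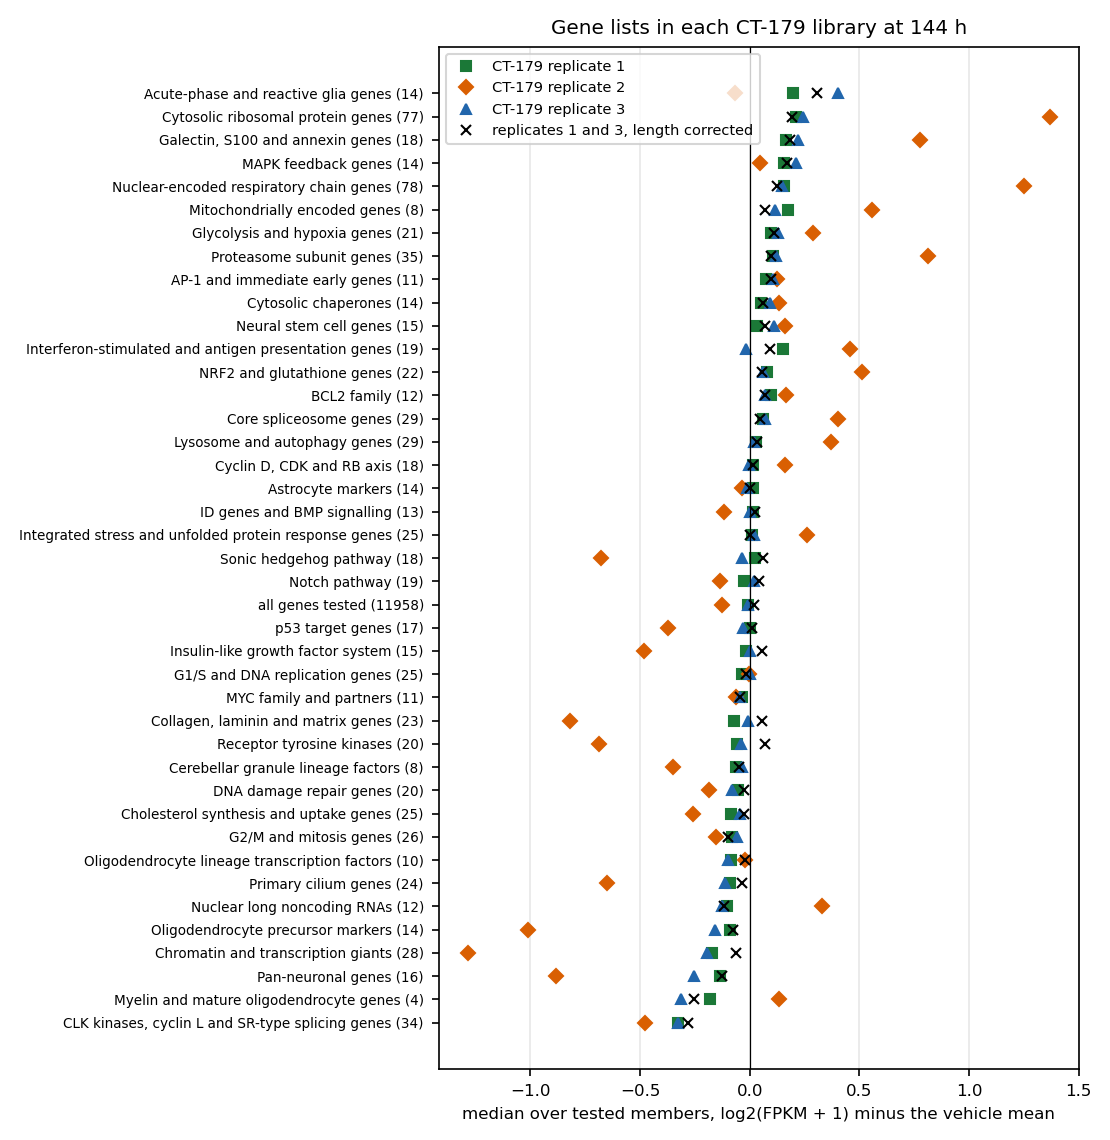
Median over the tested members (number in brackets) of 40 gene lists and of all genes tested, as the difference in log2(FPKM + 1) from the vehicle mean in each CT-179 library at 144 h, with crosses for the median log2 fold change of the 11-library fit after length correction. Replicate 2 departs to 1.37 for the ribosomal genes and to -1.29 for the long chromatin genes, where replicates 1 and 3 lie at 0.21 and 0.24 and at -0.17 and -0.19.

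Matrix genes ran in both directions. The laminin chain Lama5 measured 28.8 to 31.3 FPKM in vehicle and 20.2, 6.05 and 19.1 FPKM in CT-179 and changed by -0.59 in the 11-library fit. Lama4, another laminin chain, measured 3.96 to 4.67 FPKM in vehicle and 5.68, 2.01 and 6.16 FPKM in CT-179, with replicate 2 below vehicle and its partners above, and rose by 0.39 in the 11-library fit. Col3a1 (0.35) and Col5a2 (0.33), fibrillar collagen chains, rose in the same fit. In CT-179 replicate 2 both lay below vehicle, Col3a1 at 2.41 FPKM against 3.08 to 3.34 and Col5a2 at 3.78 FPKM against 6.32 to 6.865. In all 4 of 23 matrix genes rose (Col3a1, Lama4, Col5a2 and Lamb1) and 9 fell, against 12.4% and 17.6% of all genes, and after length correction 5 rose and 6 fell. None of the 23 passed in the 12-library fit.

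The effect at 144 h was set against that at 24 h, with the difference tested in the same model. In the 12-library fit no gene passed for the difference (limma; 541 genes at an unadjusted p under 0.05, and 481 positive and 506 negative calls with array weights). In the 11-library fit the difference was positive for 151 genes (1.26%) and negative for 192 (1.61%), 2.87% of genes in all. At 24 h in that fit 1018 genes were higher (8.51%) and 1708 lower (14.3%). In the 12-library fit the same 24 h libraries gave 0 higher genes and 30 lower (0.251%, limma). Calls at 24 h in this text are those of the 11-library fit. The cultures themselves differed between the times. In vehicle Mki67 averaged 66.3 ± 2.51 FPKM (SD, n = 3) at 24 h and 4.19 ± 0.35 at 144 h, and Dusp6 95.5 ± 2.39 and 1.19 ± 0.060 FPKM. Gpr17 went the other way, from 0.228 ± 0.0127 to 49.3 ± 3.16 FPKM, as did Miat, from 0.235 ± 0.00413 to 29 ± 1.26 FPKM.

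The splicing kinase and SR-type genes were lower at both times. At 24 h 22 of the 34 genes were lower and 2 higher, with Clk1 at -0.51 (SE 0.05), Clasrp at -0.55 and Pnisr at -0.51. The difference between times was negative for 10 of the 34, these 3 and Ccnl2 among them. Wsb1 (-0.94 at 24 h), Malat1 (-1.11) and Lime1 (-0.87) were lower at both times, and their difference between times did not pass. Gli1 changed by -0.25 (SE 0.04) at 24 h, from 2.45 ± 0.136 to 1.9 ± 0.074 FPKM (SD, n = 3), and by -0.73 at 144 h, a difference of -0.48 (adjusted p = 0.005, limma). Lama5 was lower at 24 h too (-0.68), and for 10 of the 23 matrix genes the effect was more positive at 144 h than at 24 h.

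For other genes the effects at 24 h and 144 h had opposite signs, or the one at 24 h was near 0, with a difference that passed. Lcn2 was lower at 24 h, with 1.46 ± 0.054 FPKM in vehicle and 1.07 ± 0.146 FPKM (SD, n = 3) in CT-179 (-0.25), and higher at 144 h, a difference of 1.16 (SE 0.10, adjusted p = 0.0005, limma). Lama4 was also lower at 24 h (-0.27) and higher at 144 h. Igfbp2 stood at 454 ± 24.7 FPKM in vehicle and 488 ± 17.9 FPKM in CT-179 at 24 h (0.10), and its effects differed by 0.71. Vim (-0.00 at 24 h), Dusp6 (-0.06) and Gas1 (-0.00) did not pass at 24 h, while Spry2 (-0.07) and Ccnd2 (-0.09) were lower there and higher at 144 h.

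Gpr17, Dcx, Tnr, Cntn1 and Gja1 had values between -0.06 (Tnr) and 0.02 (Gpr17) at 24 h and fell at 144 h, each with a difference that passed. For Gpr17, Dcx, Matn4, Fa2h and Miat the vehicle mean at 24 h lay under 1 FPKM, and Matn1 was listed at 0 in all 6 libraries of 24 h. On the log2(FPKM + 1) scale such levels leave little room for a fall at 24 h. Miat, at 0.235 FPKM in vehicle and 0.0928 FPKM in CT-179 at 24 h, changed by only -0.18 on that scale.

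**Figure D5:**
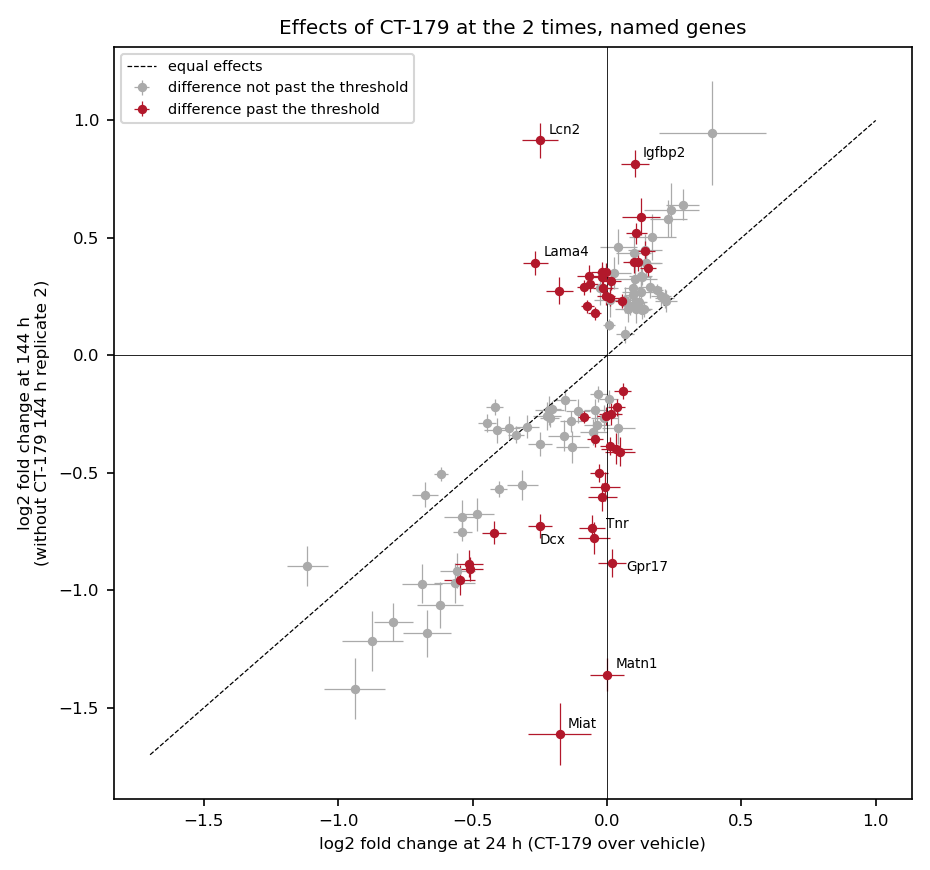
Log2 fold change of CT-179 over vehicle at 144 h in the 11-library fit (y axis) against that at 24 h (x axis) for 118 named genes, with bars of 1 SE. Red points are the 45 genes whose effects differ between times at an adjusted p under 0.05 (limma), with Lcn2 at -0.25 and 0.91, and Miat at -0.18 and -1.61.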

How the data were processed

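RNA-seq libraries of PTCP53 304 cells were grouped by treatment and time from their labels (3 vehicle and 3 CT-179 libraries at 24 h and at 144 h). Brain libraries were not used here. RNA was purified with RNeasy columns and libraries came from a SMARTer kit, per the labels' protocols. The mm10 build, STAR 2.6.0c, edgeR 3.28.1 under R 3.6, HTSeq 0.6.1p2 and Trim Galore 0.5.0 are named, without their roles, in the submitters' processing notes. Neither annotation nor strand of counting is given in the sources used here. FPKM values were deposited by the authors, which divide by gene length and library size, so a library in which short genes take more reads is shifted by length. Low values are whole multiples of 1 read in 91.03% to 91.93% of cases at 144 h (within 0.1 read, up to 20 reads), which implies 4.15e+07 to 5.42e+07 reads per library; this covers counting error only, and counts were not tested because these are FPKM values.

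Genes at 1 FPKM or more in at least 3 of the 6 libraries of 144 h were kept. The 4 group means were estimated by limma (version 3.58.1, R 4.3.3) on the log2(FPKM + 1) scale (trended variance, two-sided, Benjamini-Hochberg over 11958 genes, threshold 0.05), with all 12 libraries and without CT-179 144 h replicate 2. The model was tested on simulated data. Exonic lengths came from GENCODE vM21 (GRCm38, the assembly of mm10; 99.5% of genes matched), and length correction removed a lowess curve (span 0.3) from each library. Tables and plots were made with Python 3.11.15, pandas 2.3.3, numpy 2.4.6 and matplotlib 3.10.9. Promoters came from RefSeq.

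Members and gene lists were chosen with earlier results of these data known, so no list carries a test of its own. Named genes were Olig2, Olig1, Gli1 and Mki67, the 12 largest rises and falls among genes called in both fits without overlap between groups (ranked by the smaller change of the 2 fits, leaving out unnamed models and small RNAs), and up to 4 genes per list with the smallest p in the 11-library fit. Family members set beside them, Pdgfra, and genes named to complete small counts were chosen after their values were seen. A few genes that the rule names are not reported here. A list of histone genes was removed once the files had been read, because its name pattern caught other genes. Alternatives were other pseudocounts, filters, scalings, a separate fit, a replicate block, array weights, robust variance and leaving out each library.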

Additional observations from a re-analysis of the deposited data

Results flagged for a closer look

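For 45 of the 118 named genes the CT-179 effect at 144 h differed from that at 24 h by the test of the difference in the 11-library fit (limma, adjusted p under 0.05), 23 of them more positive at 144 h and 22 more negative; many of the 118 were chosen by their change at 144 h, so this share cannot be set against the 2.87% of all genes. None of these genes passed in the 12-library fit, where the smallest adjusted p was 0.052 (Lcn2), and 6 of them had a vehicle mean under 1 FPKM at 24 h. With 3 libraries a group, single genes were not searched for outlying samples. All values here are log2 differences, 144 h minus 24 h.

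Among hedgehog and cell cycle genes the difference was -0.48 for Gli1, -0.31 for Foxm1, 0.26 for Gas1, 0.38 for Ccnd2, -0.26 for Cdt1 and -0.21 for Birc5. Among precursor and myelin genes it was -0.90 for Gpr17, -0.68 for Tnr, -0.59 for Matn4 and -0.55 for Fa2h. Neuronal and glial genes gave -0.73 for Dcx, -0.47 for Cntn1, -0.46 for Gap43, -0.43 for S100b, -0.40 for Gja1 and, in the other direction, 0.36 for Vim. Splicing genes gave -0.37 for Clk1, -0.26 for Clk3, -0.33 for Ccnl2, -0.41 for Clasrp, -0.40 for Pnisr and -0.18 for Sf3b1.

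Genes of MAPK feedback and the immediate early response were more positive at 144 h, at 0.30 for Etv5, 0.37 for Dusp6, 0.28 for Spry2, 0.23 for Spred2, 0.46 for Junb and 0.45 for Egr1. So were the reactive, annexin and growth factor genes Lcn2 (1.16), Cp (0.41), Anxa4 (0.30), Anxa6 (0.23), Igfbp2 (0.71) and Erbb2 (0.18), while Irs2 gave -0.25. Matrix genes gave 0.35 for Col5a2, 0.37 for Col3a1 and 0.66 for Lama4. The remaining genes were Fzd9 (0.28), Ptgr1 (0.30), Dbx2 (0.30), Gsn (0.41), Rpl36a (0.22), Miat (-1.44) and Matn1 (-1.36). The low levels of Miat and Matn1 at 24 h left little room for a fall there.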

How the results depend on the processing

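Counts of genes called depended on leaving out CT-179 144 h replicate 2, on array weights and on whether the times were fitted together; the cause was not tested. With 12 libraries the 66 higher genes became 1477 without it, 43 with a pseudocount of 0.1 FPKM, 32 with a filter of 5 FPKM, 30 with TPM scaling, 227 with length correction, 2329 with array weights and 0 when the 6 libraries of 144 h were fitted alone (1071 genes at an unadjusted p under 0.05, limma). The 422 lower genes became 2108 without it, 649 with no filter, 139 with 5 FPKM, 2917 with array weights and 0 when those 6 were fitted alone. Leaving out any other library gave 9 to 294 higher and 135 to 883 lower genes. The upper ends came without CT-179 144 h replicate 1, and without single vehicle libraries of 144 h (replicates 1, 2 and 3) the counts were 11, 10 and 9 higher and 161, 135 and 154 lower; without CT-179 24 h replicates 1, 2 and 3 they were 26, 28 and 30 higher and 268, 273 and 277 lower, and without vehicle 24 h replicates 1, 2 and 3 they were 30, 27 and 35 higher and 280, 275 and 307 lower.

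With 11 libraries the 1477 higher genes became 669 with TPM scaling and 2257 with median-of-ratios scaling, and the 2108 lower genes 3278 with TPM scaling and 1333 with length correction. Leaving out a library gave 587 to 1896 higher and 977 to 2368 lower genes, with 868 higher without CT-179 144 h replicate 1 and 587 higher and 977 lower without replicate 3; the lone CT-179 library is then assumed to vary like the other groups.

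For the difference between times in the 12-library fit, the positive calls (0) became 4 with no filter, 1 with 5 FPKM, 1 with TPM and 1 with median-of-ratios scaling, 3 with length correction, 481 with array weights and 151 without CT-179 144 h replicate 2, and 0 to 1 without another library. The negative calls (0) became 17 with no filter, 1 with median-of-ratios scaling, 7 with length correction, 506 with array weights and 192 without that replicate, and 0 to 2 without another. With 11 libraries the 151 positive calls became 38 to 242 and the 192 negative calls 38 to 209 with a library left out, lowest without CT-179 144 h replicate 3, and the negative calls 113 with a pseudocount of 0.1 FPKM.

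Same-numbered vehicle and CT-179 libraries deviated from their group means with correlations of -0.142, -0.158 and -0.016 at 144 h and -0.0409, 0.0437 and 0.0923 at 24 h. At 144 h CT-179 replicates 1 and 3 mirrored the outlying replicate 2. Vehicle replicate 1 gave -0.142, 0.143 and -0.133 with CT-179 replicates 1, 2 and 3. The values at 144 h therefore cannot show whether replicate numbers pair the samples. With the replicate block the calls were 1 higher and 65 lower in the 12-library fit, 888 and 1312 in the 11-library fit, and 19 positive and 16 negative for the difference in the 11-library fit.

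Signs turned in few cases. Olig2 in the 12-library fit gave -0.19 with TPM scaling, -0.14 with length correction, and -0.039, -0.031 and -0.0085 without CT-179 144 h replicates 1 and 3 and vehicle 144 h replicate 3, its highest value being 0.089 without CT-179 144 h replicate 2. With CT-179 replicate 2, Spred2 gave -0.18, Cp -0.11, Lama4 -0.0065, Birc5 0.10 and Smo -0.25. Over all alternatives of named genes, 851 of the 12-library fit kept direction and side of the threshold and 243 lost the call, and 2322 and 125 of the 11-library fit.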

Other observations

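Among genes outside the protein-coding class the share of lower genes depended on the fit. With 12 libraries 93 of 918 such genes were lower (10.1%) and 6 higher, against 329 of 11040 protein-coding genes lower (2.98%) and 60 higher (limma, adjusted p under 0.05). With 11 libraries the shares of lower genes lay closer, at 21.4% against 17.3%. The shares of higher genes lay further apart, at 5.01% against 13%, where 12 libraries gave 0.654% against 0.543%. The small nucleolar RNA models held 20 lower genes of 78, the miRNA models 13 of 59, the sense-intronic models 10 of 13 and the models still to be experimentally checked (TEC) 15 of 42, with none higher in these 4 classes; with 11 libraries 38, 20, 11 and 23 were lower, for small nucleolar RNA, miRNA, sense-intronic and TEC models. The median difference from vehicle was -0.71, -0.95 and -0.83 for small nucleolar RNA models and -0.45, -1.10 and -0.70 for sense-intronic models in CT-179 replicates 1, 2 and 3. Many of these models lie within introns of other genes. These shares were not tested against each other.

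Sterol genes gave different counts at the 2 times. At 24 h 13 of 25 cholesterol synthesis and uptake genes were higher and none lower in the 11-library fit, against 8.51% and 14.3% of all genes. In the 12-library fit 0 of all genes tested were higher at 24 h. At 144 h none rose and 3 fell, against 12.4% and 17.6%, with a negative difference between times for 6, against 1.61% (11-library fit). The counts of higher and lower genes at 144 h were 0 and 10 under TPM and 1 and 1 under median-of-ratios scaling.

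Interferon and antigen presentation genes gave 4 rises of 19, with Ifitm3 at 0.40, B2m at 0.29 and H2-K1 at 0.27, and a fall of Stat2 (-0.34). Of 22 NRF2 and glutathione genes 7 rose, Prdx1 among them (0.24), and 2 fell, among them the cystine transporter Slc7a11, which measured 1.03 to 1.19 FPKM in vehicle and 0.711, 0.323 and 0.484 FPKM in CT-179 and passed both fits. Of 12 BCL2 family genes 3 rose, among them Bmf (0.23), a BH3-only protein, and Bcl2l2, a survival factor, fell from 8.43 to 8.62 to 5.93 to 7.36 FPKM in both fits. In CT-179 replicate 2 Bmf measured 18.9 FPKM, below the 22.76 to 23.65 of vehicle. Of 20 DNA repair genes 6 fell, among them the kinases Atr (-0.38, and -0.21 after length correction) and Atm (-0.30), and 1 rose. None of the 20 passed in the 12-library fit. In CT-179 replicate 2 Atr measured 0.934 FPKM against 3.31 to 3.59 in vehicle, and Atm 0.277 FPKM against 5.2 to 5.92. The transcriptional inhibitor Id3 rose by 0.44, and 2 of 13 genes of its list rose, a share near the 12.4% over all genes.

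In the remaining lists the counts of genes that rose and fell were 4 and 3 of 19 for the Notch pathway (Hes6 0.24, Notch2 -0.22, and -0.13 after length correction), and 3 and 1 of 21 for glycolysis (Tpi1 0.33, Ldha 0.23, which did not pass after length correction, adjusted p = 0.052). They were 3 and 3 of 25 for stress responses, 3 and 1 of 14 for chaperones, and 4 and 3 of 29 for lysosome genes. For cilium genes they were 1 and 6 of 24, for MYC partners 2 and 3 of 11, and for p53 targets 1 and 1 of 17. For granule lineage factors they were 0 and 2 of 8, and for mitochondrially encoded genes 1 and 0 of 8. Over all genes tested 12.4% rose and 17.6% fell in the same fit. Under TPM more genes were lower than higher in some lists where the reverse held, with 1 and 6 for the Notch pathway, 1 and 2 for glycolysis, 0 and 1 for chaperones and 1 and 5 for lysosome genes. More genes were lower than higher under TPM over all 11958 genes tested as well, at 669 higher and 3278 lower.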
